A study of Mus musculus with 6 samples.

Results

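The guanylate-binding proteins (GBPs) of the mouse were followed in glioblastoma stem cells with and without knockdown of Ggct. The set was 9 genes, Gbp2 to Gbp10, and every non-control probe whose transcript accession maps to one of these symbols was kept, which gave 10 probes for 9 of 9 genes. 7 of the 9 genes were among the 14151 named genes tested on the array. The family was picked because several of its genes differed between knockdown and control on these same arrays, so the values of its members are given as a description, without a test.

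Total RNA came from a murine glioblastoma stem cell line maintained as neurospheres, without serum but with EGF and bFGF. The line was derived from brain tumours that had been induced in mice with the SB transposon, so it is 1 line from that model. The control group was 3 arrays of cells transduced with a lentivirus carrying a non-target shRNA, and the knockdown group was 3 arrays of cells stably transduced with a lentivirus carrying a GGCT shRNA. A single hairpin is named in the titles of the knockdown samples, so off-target effects of its sequence cannot be told apart from those of losing Ggct. Both groups carry a lentiviral vector. Each of 3 dates in the sample titles is shared by 1 array of each group, and the pairs of arrays are numbered 1 to 3 by that date, though the labels do not say what was done on it. The labels name no separate cultures beyond those dates, so every SD, SE and p-value measures the spread between these arrays.

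GBPs are large GTPases of the dynamin superfamily. Their genes are among those most strongly induced by interferons, above all by interferon-gamma, and their promoters are known for interferon-stimulated response elements and gamma-activated sites. The proteins assemble on the vacuoles of intracellular parasites and on the surface of cytosolic bacteria, where they act with the immunity-related GTPases and help to set off inflammasomes. Several family members carry a C-terminal lipid anchor that is added by prenylation.

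In the RefSeq gene order of mouse assembly GRCm38 the 9 genes lie in 2 blocks. On chromosome 3 the order is Gbp5, Gbp7, Gbp3, Gbp2b and Gbp2, of which Gbp2b is not among the 9. On chromosome 5 it is Gbp8, Gbp9, Gbp4, Gbp10 and Gbp6. RefSeq promoter windows of assembly GRCm38.p6, each from 250 bases before a transcription start to 50 bases after it, were matched for 4 of the 9 genes. They are printed here because GBP promoters are known for these elements. All are on the + strand and written 5′ to 3′, and capitals mark the core of the interferon-stimulated response element, GAAANNGAAA, which in every one of these windows was found on the opposite strand and so reads as its reverse complement.
Gbp2, chr3:142620413-142620712: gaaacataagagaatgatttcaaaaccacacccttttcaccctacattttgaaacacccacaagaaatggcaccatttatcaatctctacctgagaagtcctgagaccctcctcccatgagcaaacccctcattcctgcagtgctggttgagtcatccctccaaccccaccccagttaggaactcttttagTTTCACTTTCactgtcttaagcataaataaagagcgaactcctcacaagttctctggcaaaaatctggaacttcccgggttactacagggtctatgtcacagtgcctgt
Gbp3, chr3:142559794-142560093: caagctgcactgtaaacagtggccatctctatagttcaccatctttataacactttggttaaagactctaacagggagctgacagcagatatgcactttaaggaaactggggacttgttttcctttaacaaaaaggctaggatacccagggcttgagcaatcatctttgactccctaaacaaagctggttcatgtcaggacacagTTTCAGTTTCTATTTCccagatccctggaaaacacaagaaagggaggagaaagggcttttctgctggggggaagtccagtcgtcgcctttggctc
Gbp7, chr3:142530086-142530385: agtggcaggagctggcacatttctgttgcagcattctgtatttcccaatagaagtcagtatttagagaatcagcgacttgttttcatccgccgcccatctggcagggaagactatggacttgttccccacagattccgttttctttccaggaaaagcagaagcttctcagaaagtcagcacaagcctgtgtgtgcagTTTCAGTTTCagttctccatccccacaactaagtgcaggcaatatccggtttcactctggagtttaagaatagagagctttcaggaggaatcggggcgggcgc
Gbp5, chr3:142496684-142496983: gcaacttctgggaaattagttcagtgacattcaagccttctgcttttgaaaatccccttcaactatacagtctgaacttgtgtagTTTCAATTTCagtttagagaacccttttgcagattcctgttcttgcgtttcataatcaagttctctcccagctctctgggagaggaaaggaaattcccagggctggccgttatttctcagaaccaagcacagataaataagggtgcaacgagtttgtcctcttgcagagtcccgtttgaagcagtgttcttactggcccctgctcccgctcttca

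Each of these 4 windows held the response element core. In the Gbp2 window it was TTTCACTTTC, from base -59 to -50 counted from the transcription start. In the Gbp3 window TTTCAGTTTC ran from -45 to -36 and overlapped a second match, TTTCTATTTC, from -39 to -30. Gbp7 carried TTTCAGTTTC from -53 to -44, and Gbp5 carried TTTCAATTTC farther from its start, from -165 to -156. Gbp3 has a second listed start, chr3:142560106-142560405, and that window held no match. The core of the gamma-activated site, TTCNNNGAA, which overlapped no response element in these windows, was present at 2 places in the Gbp7 window, TTCCAGGAA from -106 to -98 and TTCTCAGAA from -87 to -79. The Gbp5 window also had 2 of these matches, TTCTGGGAA from -245 to -237 and TTCTCAGAA from -52 to -44. Searched on both strands, the response element core occurred in 1131 of 32851 promoter windows of the same length, or 3.44%, and the gamma-activated core in 2726, or 8.30%. A match is a string of letters in a window, not a measured site.

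**Figure D1:**
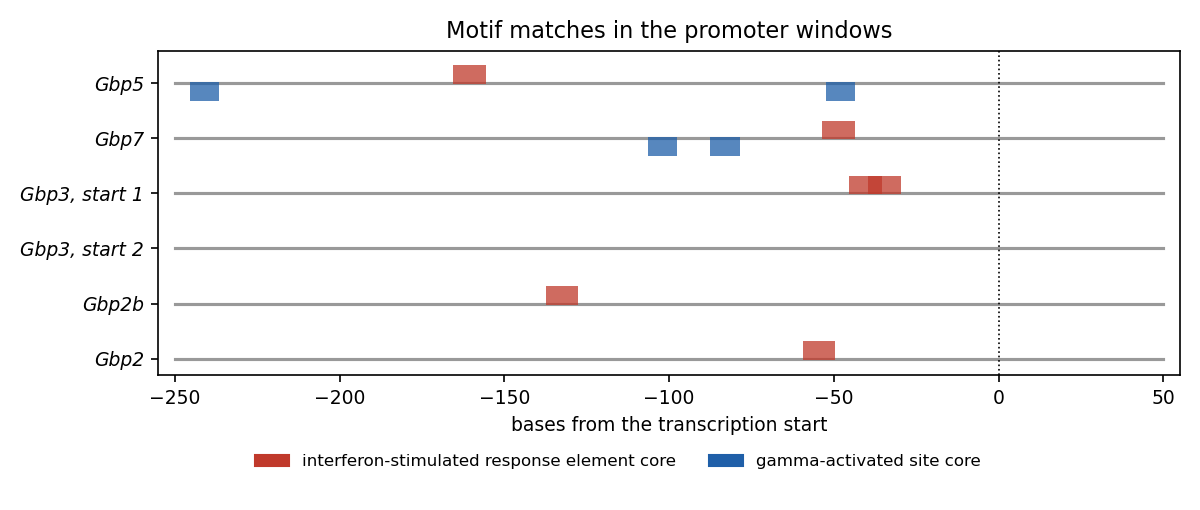
Positions of motif matches in the RefSeq promoter windows of the chromosome 3 Gbp genes. The horizontal axis is the distance in bases from the transcription start (dotted line), grey lines are the windows of 300 bases, red boxes are response element cores and blue boxes are gamma-activated cores. The Gbp2, Gbp3 and Gbp7 windows have their red box within 60 bases before the start, and those of Gbp5 and Gbp2b lie farther away.

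The targeted gene was checked first. Ggct, which encodes gamma-glutamylcyclotransferase, measured 1000.3, 1321 and 1304% of the array's 75th percentile on control arrays 1, 2 and 3. It measured 116, 187 and 163% on the knockdown arrays of the same pairs. The knockdown arrays held 12.7% of the control level, and in limma the difference was -2.97 ± 0.20 (log2, SE; adjusted p = 0.00314). All levels below are in this unit, the signal of a probe as a percentage of the 75th percentile of the signals on its array. Levels of different probes cannot be set against each other, because probes differ in how strongly they bind. Across the 14151 genes tested with limma, 646 or 4.57% were higher in knockdown at a Benjamini-Hochberg adjusted p below 0.05, 402 or 2.84% were lower, and 1048 or 7.41% passed in either direction. The median log2 fold change over all genes was 0.02. Between 54.5 and 56.8% of an array's probes passed as well above background, the scanner software's call that a spot is brighter than its surroundings. Taken over single spots, the 75th percentile was 812 to 1373 intensity units. Levels are scaled by the percentile over probes, which is lower. The lowest signal called well above background on an array was 2.04 to 3.01% of its 75th percentile. The number of arrays limits the precision of every value.

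The GBP genes fell into 3 groups by detection. Gbp2, Gbp3, Gbp7 and Gbp10 were well above background on all 6 arrays. Gbp4, Gbp6 and Gbp9 were well above background on all 3 knockdown arrays and on 0 control arrays. Gbp5 and Gbp8 were at or near background in both groups. Among all genes tested, 45 or 0.318% had the detection pattern of Gbp4, Gbp6 and Gbp9. In bulk RNA, fewer cells that make a transcript and less of it per cell cannot be told apart.

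**Figure D2:**
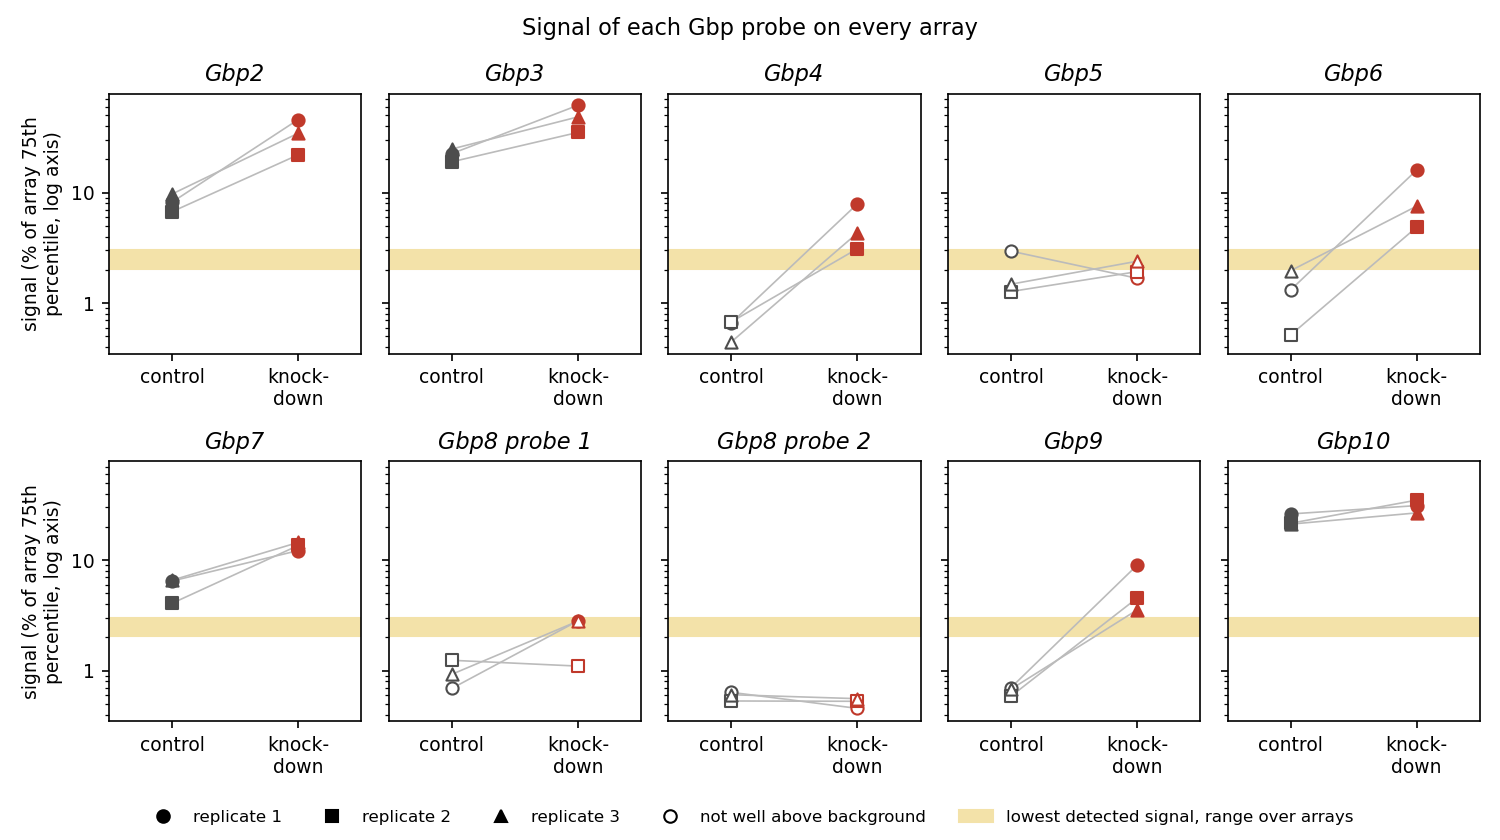
Signal of each of the 10 Gbp probes on every array, as a percentage of the array's 75th percentile on a log axis, for control (grey) and knockdown (red). Marker shape gives the replicate number and grey lines join the arrays of a pair. Open markers were not well above background, and the yellow band spans the lowest detected signal over the arrays, 2.04 to 3.01%. Gbp4, Gbp6 and Gbp9 pass from below the band to above it, whereas Gbp5 and the second Gbp8 probe stay within or below it.

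Gbp2 encodes a GBP with a prenylation motif that is recruited to parasite vacuoles and takes part in inflammasome activation. Its probe measured 8.20, 6.72 and 9.71% on control arrays 1, 2 and 3, and 45.8, 22 and 34.5% on knockdown arrays 1, 2 and 3. The groups did not overlap, and the lowest knockdown array lay 1.18 log2 units above the highest control array. The group means were -3.62 ± 0.27 in control and -1.62 ± 0.53 in knockdown (log2 relative to the 75th percentile, SD, n = 3 each). The difference was 2.01 ± 0.34 (log2, SE), or 4.01-fold, and the 3 pairs differed by 2.48, 1.71 and 1.83.

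Gbp3 belongs to the same chromosome 3 block as Gbp2 and was detected in control cells. Its levels were 22.5, 19.0 and 24.8% on the control arrays and 61.6, 35 and 48.4% on the knockdown arrays. Every knockdown array was above every control array, by at least 0.50 log2 units. The means were -2.19 ± 0.19 and -1.09 ± 0.41 (log2, SD, n = 3 each), which is a difference of 1.1 ± 0.26 (SE) or 2.14-fold.

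Gbp7 encodes a GBP linked to the delivery of oxidase and autophagy components to bacterial vacuoles. It measured 6.47, 4.07 and 6.58% in control and 12.2, 13.6 and 14.4% in knockdown, again without overlap. The difference was 1.26 ± 0.24 (log2, SE), or 2.40-fold. Unlike Gbp2 and Gbp3, the spread lay in the controls, with an SD of 0.39 there against 0.12 in knockdown (log2, n = 3 each).

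Gbp10, on chromosome 5, had the smallest difference of the 7 tested genes. Its levels were 26.1, 21.5 and 21.1% in control and 31.1, 34.9 and 26.7% in knockdown. The groups were separated by only 0.03 log2 units, between control array 1 and knockdown array 3. The difference was 0.43 ± 0.15 (log2, SE), or 1.35-fold, with pair values of 0.25, 0.70 and 0.34.

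Gbp4, a chromosome 5 gene, was not well above background in control cells, where it measured 0.66, 0.68 and 0.45%. It measured 7.91, 3.11 and 4.31% on the knockdown arrays. Because the control signal did not pass the detection call, the fold was taken against the lowest signal detected on each control array. This gave a lower bound of 1.89-fold, which holds for that floor and this background correction. The measured means, -7.42 ± 0.34 and -4.40 ± 0.68 (log2, SD, n = 3 each), differed by 3.02 ± 0.44 (SE).

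Gbp6 had the largest of the 3 lower bounds, 3.35-fold. Its signals were 1.32, 0.51 and 1.96% in control, none of them well above background, and 16.0, 4.87 and 7.54% in knockdown. Its measured values were also the most scattered, with an SD of 0.99 in control and 0.87 in knockdown (log2, n = 3 each) around a difference of 2.93 ± 0.76 (SE).

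Gbp9 showed the same detection pattern. It measured 0.70, 0.59 and 0.68% on the control arrays and 8.99, 4.53 and 3.54% on the knockdown arrays. The lower bound was 2.09-fold, and the measured means differed by 3.0 ± 0.41 (log2, SE), with pair differences of 3.68, 2.95 and 2.38. Knockdown array 1 was the highest of its group for Gbp4, Gbp6 and Gbp9 alike.

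Gbp5, a GBP known for promoting NLRP3 inflammasome assembly, was well above background on 0 of 6 arrays. Its signals were 2.95, 1.27 and 1.48% in control and 1.68, 1.92 and 2.39% in knockdown, and the groups overlapped. Gbp8 was measured by 2 probes. The first gave 0.69, 1.24 and 0.93% in control and 2.81, 1.1 and 2.80% in knockdown, and it passed the detection call on knockdown array 1 alone, although array 3 measured 2.80%. The second gave 0.64, 0.53 and 0.60% in control and 0.45, 0.53 and 0.56% in knockdown and passed on 0 arrays. No fold is given for either gene. Gbp2b, which sits between Gbp3 and Gbp2, was likewise well above background on 0 arrays, with signals of 0.42 to 0.63%, and Gbp11 had no matched probe.

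Of the 7 tested genes, 6 passed the threshold of the fit over all genes, all 6 of them higher in knockdown, beside 4.57% of all genes. Gbp10 was the exception. Every knockdown array lay above every control array for 7 of the 7, beside 2516 or 17.8% of all genes. Gbp4, Gbp6 and Gbp9 passed the filter through the knockdown arrays alone. Both results for them rest on control signals that did not pass the detection call. These counts describe a set that was chosen on this contrast, and nothing is read from them. They also rest on single arrays. Without control array 1 the count of members past the threshold was 0 in limma (7 at an unadjusted p below 0.05, beside 2738 of 14151 genes), without control array 2 it was 2, and without knockdown array 3 it was 1. Without pair 3 it was 0 in limma, with 7 at an unadjusted p below 0.05, beside 2796 of 14151 genes. With normexp background correction, which starts from the median spot signal and adds an offset of 50 intensity units, it was 3, and the differences of 5 members were over 1.5 times lower (1.15 for Gbp2, 0.53 for Gbp7, 0.45 for Gbp4, 0.68 for Gbp6 and 0.47 for Gbp9, log2). GBP genes are close in sequence and lie in clusters, and probes of one can bind transcripts of another; the probe sequences were not analysed here.

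**Figure D3:**
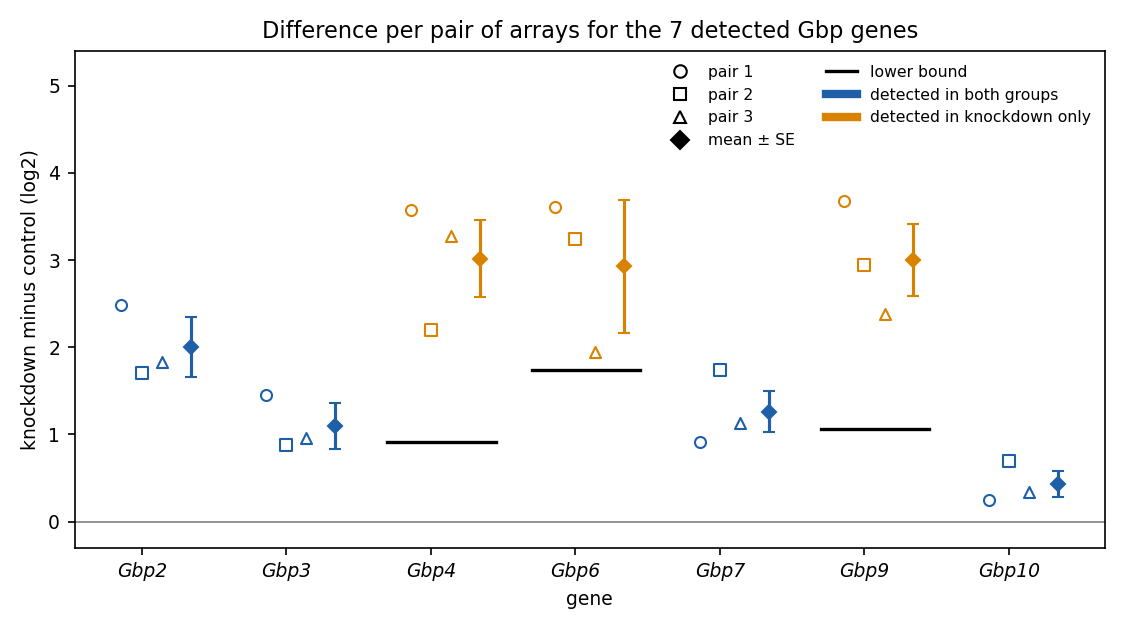
Knockdown minus control on the log2 scale for the 7 tested Gbp genes. Open circles, squares and triangles are the differences of pairs 1, 2 and 3, diamonds with bars are the mean and SE (n = 3 arrays a group), and black lines are the lower bounds of the 3 genes detected in knockdown only (orange). All 21 pair differences lie above 0, from 0.25 for Gbp10 to 3.68 for Gbp9, and the bounds lie below the measured differences.

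The members differed in which knockdown array was highest. Gbp2, Gbp3, Gbp4 and Gbp6 shared 1 order, with array 1 above array 3 and array 3 above array 2. Gbp9 had array 1 first and array 3 last, Gbp7 had array 3 first and array 1 last, and Gbp10 had array 2 first. Knockdown array 1 was thus the highest for 5 of 7 members, beside 47.1% of all genes tested. It was the highest for 6 of the 7 immunity-related GTPase genes tested and for 21 of 23 interferon-stimulated reference genes. The residual Ggct signal was lowest on that array, at 116% of the 75th percentile, and highest on array 2, at 187%. Whether the order of the members is related to the residual Ggct signal was not tested.

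As a description, the deviations of each member from its own group means were set against the mean deviation of the other tested members over the 6 arrays. The correlation was 0.92 for Gbp3, 0.88 for Gbp2, 0.85 for Gbp6, 0.73 for Gbp9 and 0.46 for Gbp4. It was 0.18 for Gbp7 and -0.05 for Gbp10. All points share the same 6 arrays and their scaling, and the values carry no test. For Gbp4, Gbp6 and Gbp9 the control points are signals that were not well above background. Those signals also enter the mean against which the other members were set.

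Genes whose symbol names a clone, locus or predicted gene were left out of a search for similar profiles. Of the remaining genes outside the family, 5 followed the mean profile of the 7 members most closely over the 6 arrays. They were Rgs8, Serpinb9, Tmem176b, Ddb2 and Lrrc75a. Their Pearson correlations were 0.996 to 0.999, and the log2 differences between groups were 2.41 for Rgs8, 1.09 for Serpinb9, 0.90 for Tmem176b, 0.91 for Ddb2 and 0.64 for Lrrc75a. With group differences removed, the correlations were 0.957 to 0.985. Rgs8 encodes a regulator of G-protein signalling, Serpinb9 an inhibitor of granzyme B and Ddb2 a DNA damage recognition protein. These 5 were picked as the nearest of those left from 14151 genes, so high values follow from the choice. The mean profile also includes control signals of Gbp4, Gbp6 and Gbp9 that were not well above background.

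The genes of the surrounding pathway were counted in lists that are given with the number tested, the number past the threshold in limma and the median log2 fold change, beside a median of 0.02 for all genes. The relatives by structure, the atlastins and other large dynamin-like GTPases, numbered 8 tested genes. Of these 0 passed in either direction (0 at an unadjusted p below 0.05), with a median of -0.02. The log2 fold changes of the 3 atlastins, which fuse membranes of the endoplasmic reticulum, were -0.02 ± 0.20 for Atl1, 0.04 ± 0.23 for Atl2 and -0.07 ± 0.16 for Atl3 (SE). Mx1 and Mx2 had no matched probe.

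The immunity-related GTPases (IRGs), the other interferon-inducible GTPase family that acts at pathogen vacuoles, had 5 of 7 tested genes higher and 0 lower, with a median of 1.35. Tgtp2 measured 3.0, 3.5 and 3.4% in control and 24.1, 9.8 and 13.9% in knockdown. It rose by 2.18 ± 0.30 (log2, SE; limma adjusted p = 0.0134). Ifi47 rose by 2.03 ± 0.19, Igtp by 1.51 ± 0.21 and Irgm1, a regulator of the other IRGs, by 1.35 ± 0.23 (log2, SE). With normexp background correction Tgtp2 and Ifi47 rose by 0.90 and 0.76, and the median of the list was 0.76. Gm12250, which encodes Irgb10, an IRG that works with GBPs on bacterial membranes, was chosen after its value was seen: its fold change was 0.00 ± 0.22 (adjusted p = 0.9997 in limma).

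Among interferon genes themselves, 4 of 12 could be tested and 0 passed in limma (0 at an unadjusted p below 0.05), with a median of 0.16. The 4 tested genes, Ifna1, Ifna2, Ifna5 and Ifnl3, were well above background on all 6 arrays, at 3.82 to 9.72% of the 75th percentile. Ifnb1, Ifng and Ifna4, chosen after their values were seen, were well above background on 0 arrays. In the list of receptors and signalling genes 2 of 17 were higher and 0 lower, with a median of 0.13. Usp18, which restrains type I interferon receptor signalling, rose by 1.36 ± 0.27 (log2, SE; limma adjusted p = 0.031). Ifngr2, a chain of the interferon-gamma receptor, rose by 0.60 ± 0.14 (adjusted p = 0.048 in limma). Neither passed with the date in the titles as a replicate block, where the adjusted p was 0.054 for Usp18 and 0.105 for Ifngr2. Usp18 also did not pass with quantile normalization (adjusted p = 0.052) or with normexp (adjusted p = 0.065), where its log2 fold change was 0.47. Stat2, a factor of type I interferon signalling that was chosen after its value was seen, gave -0.02 ± 0.19 (log2, SE).

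Of the transcription factors of interferon-inducible promoters, 3 of 12 were higher and 0 lower, with a median of 0.22. Irf1, a factor that binds response elements, measured 1044, 1136 and 1230% in control and 2292, 1794 and 2179% in knockdown. It rose by 0.87 ± 0.14 (log2, SE; limma adjusted p = 0.017), and the groups did not overlap. Irf7, a factor of type I interferon genes, rose by 1.04 ± 0.19 (adjusted p = 0.024 in limma). Batf2 was well above background on the 3 knockdown arrays and on 0 control arrays, so it passed the filter through the knockdown arrays alone. Its lower bound, taken as for Gbp4, was 2.40-fold. The adjusted p of 0.015 in limma rests on control signals that did not pass the detection call. With normexp background correction the log2 fold change of Batf2 was 0.30 and it did not pass (adjusted p = 0.295 in limma). Irf4, Irf8 and Ciita were well above background on 0 arrays.

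The inflammasome and pyroptosis list, which holds genes downstream of GBPs on bacteria, had 2 of 8 tested genes higher and 0 lower, with a median of 0.22. Casp4, the caspase that senses bacterial lipopolysaccharide, rose by 1.5 ± 0.21 and Casp1, the protease of canonical inflammasomes, by 1.19 ± 0.19 (log2, SE; limma adjusted p = 0.013 and 0.017). Nlrp3 and Il1b were well above background on 0 arrays. Of the genes that direct GBPs to vacuoles or tag those vacuoles with ubiquitin, 3 of 16 were higher and 0 lower, with a median of 0.21. Trim21, a ubiquitin ligase, rose by 1.21 ± 0.16, Gabarap, a protein of autophagy membranes, by 0.60 ± 0.11 and Atg12, part of the conjugation machinery, by 0.57 ± 0.13 (log2, SE). With the replicate block the adjusted p was 0.061 for Gabarap and 0.092 for Atg12. The prenylation list holds enzymes that add the lipid anchor and enzymes that act after that step. Of its genes 0 of 6 passed the threshold in limma (3 at an unadjusted p below 0.05), with a median of -0.02.

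Interferon-stimulated genes without GTPase function, kept as a reference, had 13 of 23 higher and 0 lower, with a median of 1.1. That median is the value of Psmb9, which was well above background on the 3 knockdown arrays and on 0 control arrays. Psmb9 thus passed the filter through the knockdown arrays alone, and its lower bound was 1.49-fold. With normexp Psmb9 did not pass (log2 fold change 0.13, adjusted p = 0.73 in limma), and the median of the list was 0.88. Parp14 rose by 2.82 ± 0.40, Oasl2 by 2.37 ± 0.34, Rsad2 by 2.33 ± 0.56 and Xaf1 by 2.08 ± 0.15 (log2, SE). With normexp Parp14 rose by 1.54 and Xaf1 by 0.94, and a second Xaf1 probe gave -0.09 in the main setting. Rsad2 (adjusted p = 0.049 in limma) did not pass with quantile normalization between arrays (adjusted p = 0.063). Over the 9 pathway lists together 28 of 101 tested genes were higher and 0 lower. That count was 1 without control array 1, 4 without control array 2, 18 without control array 3 and 1 without knockdown array 3, so 4 of the 6 arrays each move it by more than 1.5 times.

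**Figure D4:**
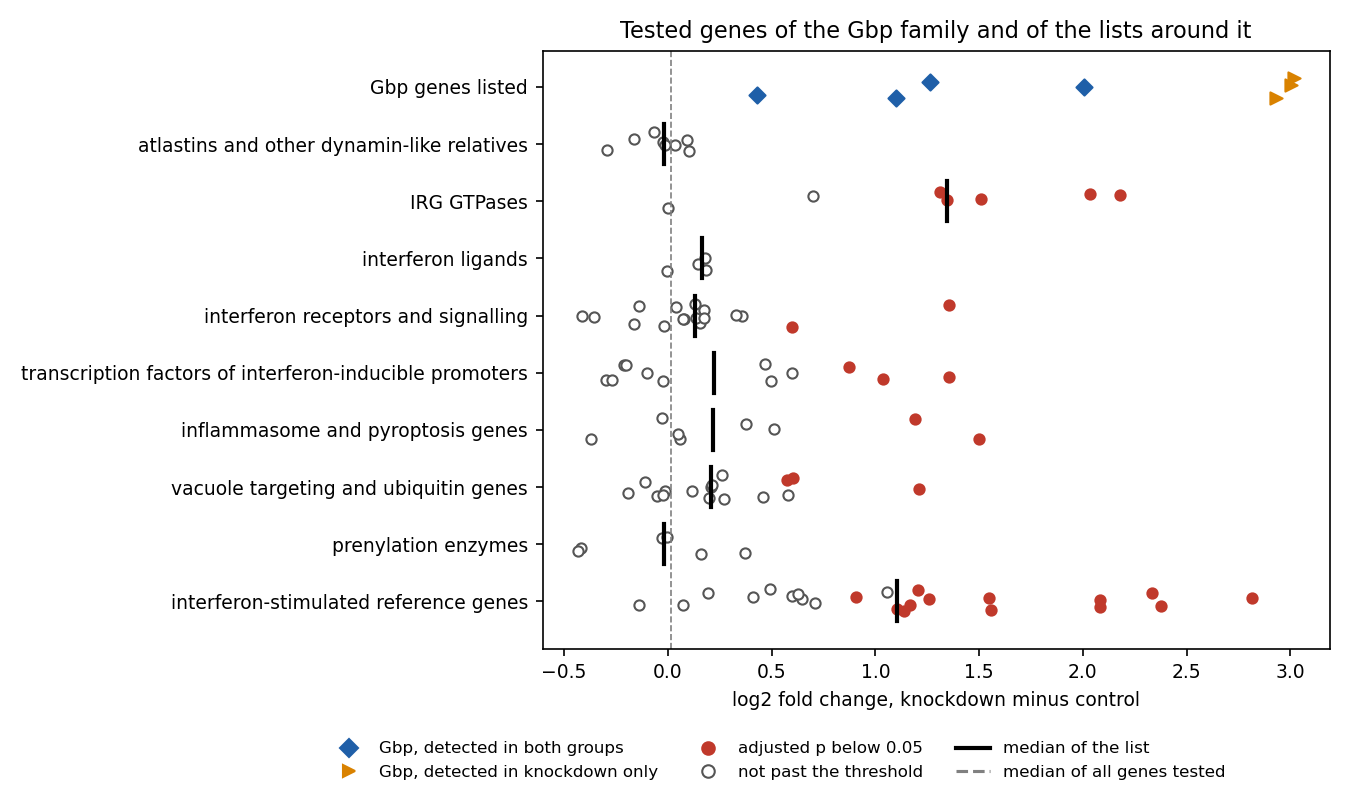
Log2 fold change, knockdown minus control, of the tested Gbp genes and of the tested genes in the lists around them. Filled red circles had a limma adjusted p below 0.05, open circles did not, black bars are list medians and the dashed line is the median of all genes, 0.02. The Gbp genes carry no test, and orange triangles are the measured differences of those detected in knockdown only. The lists of IRGs and reference genes have medians of 1.35 and 1.1, and the other lists have medians from -0.02 to 0.22. The median of the reference genes is the value of Psmb9, which was detected in knockdown only.

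The markers of cell types were read on the same arrays. Of the neural and glioma stem cell list 9 of 11 could be tested and 0 passed in limma (4 at an unadjusted p below 0.05). The median log2 fold change of that list was -0.31. Those 4 were Nes at -0.64 ± 0.22, Sox2 at -0.34 ± 0.12, Egfr at -0.36 ± 0.13 and Prom1 at 1.03 ± 0.33 (log2, SE). Nes and Sox2 were well above background on all arrays, with Nes at 1195 to 2779% of the 75th percentile, and Olig2 on 0 arrays. Of the microglia and macrophage list, cells that express GBPs strongly when activated, 8 of 14 markers were well above background on 0 arrays, namely Ptprc, Aif1, Cx3cr1, P2ry12, Adgre1, Lyz2, C1qa and Trem2. The other 6, Itgam, Csf1r, Cd68, Cd14, C1qb and Tmem119, were well above background on all 6 arrays. Their signals summed to 1233 to 1854% in control and 1326 to 1577% in knockdown, most of it from the Itgam probe (936 to 1559% and 894 to 1205%). Of those 6, Tmem119 was higher by 1.17 ± 0.20 (log2, SE; limma adjusted p = 0.021). In the lymphocyte list 3 of 9 could be tested, 0 passed (0 at an unadjusted p below 0.05), and the summed level was 215 to 257% in control and 208 to 260% in knockdown. In the endothelial list Flt1, a receptor of vascular growth factors, fell by 1.0 ± 0.17 (log2, SE, limma adjusted p = 0.019) and was 1 of 3 tested. In the fibroblast and pericyte list 0 of 5 passed in limma (1 at an unadjusted p below 0.05). The summed level of that list was 9256 to 10696% in control and 9636 to 12477% in knockdown. Most of it came from the Col3a1 probe (6702 to 9062% and 7173 to 10826%). Because probes differ in how strongly they bind, these sums mostly follow the brightest probe and give no level of a cell type. The part of any such cells in the GBP values was not tested.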

How the data were processed

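Total RNA of 3 control and 3 knockdown samples was hybridised to one-colour Agilent arrays. The deposited scanner files hold intensity values on a linear scale, from which Agilent Feature Extraction 11.0.1.1 had already subtracted background according to the headers. The deposited value table holds log2 values. It was set against the scanner files, and 100% of its compared probes equalled the log2 processed signal minus a constant for each column (9.05 to 9.75) within 0.01. Its column medians were -4.47 to -4.22, the direction is that of the signal, and genes are not centred.

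Spots marked as outliers by the scanner software were left out, which removed 12 of 56605 non-control probes, and spots of a probe were averaged on the log2 scale. Each array was scaled by the 75th percentile over its probes, and the log2 value of the scaled signal was analysed. Accessions, without versions, matched a RefSeq table of assembly GRCm38 for 32994 probes (58.3%) and left 23611 unnamed. The array design follows another build, so probes have no coordinates here. A probe was kept if it was well above background on 3 or more of 6 arrays (31804 probes, of which 20917 were named), and each gene was represented by its probe with the highest mean. The groups were compared with limma 3.58.1 in R 4.3.3 (lmFit and eBayes, two-sided) with Benjamini-Hochberg adjustment over 14151 genes. For GBP genes the SE comes from the SDs of the groups, and 0 probes were saturated.

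For a fold bound, each control array entered with the lowest signal detected on it, or with the probe's own signal where that was higher. The mean of these log2 values was subtracted from the knockdown mean. A probe above that lowest signal can still fail the detection call, so the bound depends on this choice of floor. The replicate numbers pair the arrays because each date in the titles is shared by 1 array of each group. The deviations of paired arrays from their group means correlated at -0.02, 0.55 and -0.20 over 14151 genes. All arrays carried 1 slide and 1 scan date, so neither could be tested as a batch. The members, lists, motifs and rules were chosen with earlier results of these data known. The rule for naming took all members, Gbp2b, Gbp11, Ggct and the atlastins, up to 4 genes past the threshold from each list by size of change, and the 5 nearest profiles. Other genes named were chosen after their values were seen. Gbp2b and Gbp11 could not be tested, since no probe of theirs passed the filter. The fit was tested on simulated data. Alternatives were other scalings, filters, probe rules and background corrections, the deposited table, a replicate block and leaving out arrays. The files hold no mean signal column, so normexp used the median spot signal. Python 3.11.15 with pandas 2.3.3 and matplotlib 3.10.9 read and drew the data. Probe sequences were not used here. The values of 1 further gene, which counts in the totals, are not reported here.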

Additional observations from a re-analysis of the deposited data

How the results depend on the processing

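Over all genes, 1048 passed the threshold, 357 of 22907 with no filter on dim probes, 556 of 31804 with every probe fitted on its own, and 14 to 840 with 1 array left out. Leaving out a pair of arrays gave 343, 81 and 0 for pairs 1, 2 and 3, the last with 2796 at an unadjusted p below 0.05 in limma. With the replicate block for the pairing by date 558 genes passed. The count of GBP genes past it was 6, 3 with normexp background correction, 0 to 6 with 1 array left out and 4, 4 and 0 without pairs 1, 2 and 3. The pathway lists gave 28 genes, 17 with no filter, 18 with every probe on its own, 1 to 25 with 1 array left out and 17, 10 and 0 without pairs 1, 2 and 3 (42 at an unadjusted p below 0.05 without pair 3). With the block these counts were 6 and 25. Except for the calls named beside the results, the block changed the call of 1 list gene, Ifi44, which passed with it (adjusted p = 0.0437 in limma).

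Normexp correction lowered all 7 GBP differences, 5 of them to the values given beside the results, Gbp3 to 0.82 and Gbp10 to 0.32 (log2). The bounds of Gbp4, Gbp6 and Gbp9 were then 1.34, 1.61 and 1.32-fold. The list medians of the transcription factors and interferon genes were 0.05 and 0.02. The cause was not tested, since the input signal, the background model and the offset differ together. With 1 array left out the differences ran from 1.76 to 2.29 for Gbp2, 0.91 to 1.31 for Gbp3, 2.65 to 3.32 for Gbp4, 2.38 to 3.35 for Gbp6, 1.03 to 1.38 for Gbp7, 2.61 to 3.29 for Gbp9 and 0.34 to 0.53 for Gbp10. For the other genes tested by name, 1645 comparisons with an alternative stayed on the same side of the threshold. In 184 the gene no longer passed, in 7 it newly passed, and 0 that passed changed sign. All 184 came from Ggct and the 28 of 101 list genes that passed in the main setting. Most of the 1645 were of genes that passed in neither setting. Gbp11 had no probe. Gbp2b was removed by the filter on dim probes, and without the filter no value is given, since neither group was well above background. Where the control signal was not well above background, signal over background limits the fold to a bound.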

Other observations

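The genes beside the 2 Gbp blocks were looked at after the values of the members had been seen. On chromosome 3 the nearest 3 tested protein-coding genes on each side were Stpg2, Bmpr1b and Pdlim5 before the block and Kyat3, Gtf2b and Pkn2 after it. Their log2 fold changes ran from -0.52 to 0.14, and 0 of 6 passed the threshold in limma (1 at an unadjusted p below 0.05). On chromosome 5 they were Pkd2, Thoc2l and Zfp951 before the block and Lrrc8b, Lrrc8c and Lrrc8d after it, with log2 fold changes from -0.61 to -0.03. Lrrc8c, a subunit of volume-regulated anion channels, was lower by -0.61 ± 0.13 (SE; limma adjusted p = 0.0358), and the other 5 did not pass.

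Over all genes with a promoter window, 44 of the 495 that were higher in knockdown held the response element core GAAANNGAAA, or 8.89%, beside 404 of 11239 tested genes, or 3.59%. For the gamma-activated core TTCNNNGAA the shares were 11.3% and 8.43%. Gbp2, Gbp3 and Gbp7 are among these, whereas Gbp5 was not tested and is in neither count. The shares carry no test.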
